A study of Mus musculus with 6 samples.

Results

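Interferon-stimulated genes are the genes that cells switch on when interferon reaches its receptor, and 38 of them were followed here among the 34745 genes listed for each library. They were taken by symbol from a list that runs from RNA sensors to antigen processing, with no threshold on their values, and all 38 passed the filter on low counts that left 14084 genes for the test. RNA-seq was done on cardiac fibroblasts isolated from the hearts of mice on Day 7 after myocardial infarction (MI), for which the left anterior descending artery was tied off. There were 3 libraries labelled KO and 3 labelled WT, from male mice of 8 to 10 weeks on a C57BL/6 background that had all undergone the same operation. The KO mice carry a CRISPR/Cas9 deletion in *Kdm5b* that removes the bases for the JmjC domain, the catalytic part of a histone H3K4 demethylase, and the WT mice are littermates without it. The deletion is present in every cell of these mice, not only in fibroblasts. No sham-operated or uninjured hearts belong to the series, so no level before MI can be given. The labels do not say whether replicates came from separate animals or pools, so each p-value measures the spread between these libraries, which may in part be technical.

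*Kdm5b* (ENSMUSG00000042207, chromosome 1 from 134560171 to 134635285 in mm10, plus strand) was read first as a check of the labels. Its CPM, which are counts scaled to library size with edgeR's TMM factors, were 98.1, 107 and 105 in KO-1, KO-2 and KO-3, and 108, 129 and 123 in WT-1, WT-2 and WT-3. The log2 fold change was -0.22 (SE 0.07, adjusted p = 0.0574 from edgeR), which missed the threshold of 0.05 although all 3 KO values lay below the WT values. The transcript was thus counted in the KO libraries at 103 ± 4.60 CPM (SD, n = 3) against 120 ± 10.6 CPM in the WT libraries, and its level does not establish the labels. Reads outside the deleted bases are counted too, and the groups are named here by their labels. Between 12025403 and 15329427 reads or fragments were counted per library, and the biological coefficient of variation between libraries of a label was 10.9%. A gene with 0 counts in the smallest library could still have stood at up to 3 counts, or 0.249 CPM by library total without the TMM factor, an allowance for counting error only. All 10 fibroblast marker genes were detected, with summed levels of 25060 to 29332 CPM in the KO libraries and 34958 to 37562 CPM in the WT libraries, and 9 of the 10 were lower in KO. Summed macrophage markers stood at 1287 to 1328 CPM in KO and 1603 to 1678 CPM in WT, with *Cd163* at 0. Of the 12 tested, 2 were higher and 6 lower, with log2 fold changes from -0.61 to 1.38. Monocyte markers summed to 38.4 to 39.3 CPM in KO and 41.1 to 58.5 CPM in WT, and dendritic cell markers to 24.6 to 27.9 CPM and 18.9 to 22.2 CPM. Cardiomyocyte markers stood at 759 to 850 CPM and 1071 to 1079 CPM, with 6 of 8 lower. Summed endothelial markers stood at 1562 to 2237 CPM in KO and 288 to 299 CPM in WT, and all 12 of them were higher in KO. Neutrophil markers summed to 15.3 to 19.9 CPM in KO and 16.6 to 17.5 CPM in WT, with 2 of the 4 tested higher and 1 lower. Mural markers summed to 403 to 419 CPM in KO and 322 to 356 CPM in WT, with 2 of the 5 tested higher and 2 lower, and plasmacytoid dendritic cell markers to 0.300 to 0.838 CPM and 0.142 to 0.819 CPM. The part of these other cells in the results that follow was not tested, and in bulk RNA fewer cells of a type and less RNA per cell cannot be told apart.

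Interferons are secreted proteins that act through receptors and the kinases JAK1, JAK2 and TYK2. Type I interferon brings STAT2 and IRF9 together in a complex named ISGF3, which binds a DNA element called the interferon-stimulated response element (ISRE), and interferon gamma acts on the gamma-activated site (GAS). Their products sense viral RNA, cleave or sequester it, modify proteins with ISG15 or ubiquitin, and present peptides on MHC class I. In the infarcted heart, nucleic acids released by dying cells are known to start this response in infiltrating myeloid cells, and fibroblasts carry the receptors as well.

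Some of these genes share an element near the start site, so 8 promoter stretches are printed before the values. RefSeq windows of 250 bases before to 50 bases after the start site (GRCm38.p6, the same primary assembly as mm10) were available for 28 of the 38 genes. The core of the ISRE was searched as GAAA, any 2 bases and GAAA again, which reads TTTC, any 2 bases and TTTC on the other strand, and capitals mark it on either strand. *Isg15*, *Oas1a* and *Ifit1* are shown for the 250 bases that end at the RefSeq start site, *Isg15* because it holds 3 overlapping cores, *Oas1a* because it had the largest change, and *Ifit1* because it holds the same element with nearly equal levels in both labels. *Trim25* is shown as a gene that was higher in KO without a match in its window. *Isg15* covers chr4:156200819-156201068 on the minus strand, *Oas1a* chr5:120907526-120907775 on the minus strand, *Ifit1* chr19:34640639-34640888 on the plus strand and *Trim25* chr11:88999153-88999402 on the plus strand, each written 5′ to 3′ along the gene:
Isg15: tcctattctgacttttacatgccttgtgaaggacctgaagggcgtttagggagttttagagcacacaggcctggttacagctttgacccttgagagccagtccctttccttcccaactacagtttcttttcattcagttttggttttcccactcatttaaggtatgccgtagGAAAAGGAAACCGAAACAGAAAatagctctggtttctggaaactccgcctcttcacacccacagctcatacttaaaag
Oas1a: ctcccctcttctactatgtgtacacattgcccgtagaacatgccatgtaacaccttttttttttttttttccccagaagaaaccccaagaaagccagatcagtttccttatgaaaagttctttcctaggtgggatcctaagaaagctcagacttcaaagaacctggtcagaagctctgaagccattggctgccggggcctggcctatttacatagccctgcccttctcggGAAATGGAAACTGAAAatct
Ifit1: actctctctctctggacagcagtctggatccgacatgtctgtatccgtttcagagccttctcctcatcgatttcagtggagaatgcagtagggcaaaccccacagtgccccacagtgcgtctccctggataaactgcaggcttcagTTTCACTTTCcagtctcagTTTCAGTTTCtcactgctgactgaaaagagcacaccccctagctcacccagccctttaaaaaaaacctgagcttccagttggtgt
Trim25: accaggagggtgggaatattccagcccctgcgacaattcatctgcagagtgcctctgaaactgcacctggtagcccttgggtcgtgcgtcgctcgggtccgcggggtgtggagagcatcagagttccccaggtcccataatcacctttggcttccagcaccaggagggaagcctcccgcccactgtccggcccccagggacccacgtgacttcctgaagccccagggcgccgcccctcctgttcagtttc

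Stretches of 50 bases around the core are shown for *Ifit3* (chr19:34583370-34583419, plus strand), *Gbp2* (chr3:142620584-142620633, plus strand), *Bst2* (chr8:71537570-71537619, minus strand) and *B2m* (chr2:122147528-122147577, plus strand). The first pair had the lowest fitted changes among the 38 genes, *Bst2* had a fitted change above 0, and *B2m* had the highest level per length:
Ifit3: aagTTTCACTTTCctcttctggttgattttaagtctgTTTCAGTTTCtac
Gbp2: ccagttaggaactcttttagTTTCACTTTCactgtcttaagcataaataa
Bst2: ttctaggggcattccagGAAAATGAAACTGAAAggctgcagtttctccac
B2m: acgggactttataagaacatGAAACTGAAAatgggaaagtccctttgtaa

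The ISRE core was found in the windows of 14 of the 28 genes, or 50% (exact binomial 95% interval 30.6% to 69.4%), against 1079 of the 27025 genes with a window (3.99%) and 3.44% of all 32851 windows. These genes were *Ddx58*, *Ifih1*, *Stat2*, *Isg15*, *Ifit1*, *Ifit3*, *Oas1a*, *Bst2*, *Ifitm2*, *Ifitm3*, *Rsad2*, *Gbp2*, *Gbp3* and *B2m*. A longer core with a C after the last A, which overlaps the first by construction, was found in 11 of the 28 (39.3%) against 0.94% of all genes with a window. The GAS core TTCNNNGAA, which reads the same on both strands, was found in 7 of the 28 (25%) against 9.55% of all genes. Of the genes that were higher in KO, *Oas1a*, *Trim25*, *Ifit2* and *Xaf1* had a window, and *Oas1a* was the only one of these 4 with the ISRE core. In *Ddx58*, *Ifih1* and *Ifitm3* the matches lay after the start site. Of the 14 genes with the core, *Oas1a* alone was called by edgeR, where 30.2% of all genes tested were called, while DESeq2 also called *Ifit3* and *Gbp2* lower. The called genes *Oas2*, *Dhx58*, *Usp18* and *Mx2* had no window, and a link between core and call was not tested. A missing match says only that these letters are not in the window.

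Of the 38 interferon-stimulated genes, 8 were higher in the KO libraries and 0 were lower by edgeR, with the adjusted p under 0.05 over all genes tested. That is 21.1% higher, where the background was 17.7% of all genes tested higher and 12.5% lower, or 30.2% in either direction. The 8 genes were *Oas1a*, *Oas2*, *Dhx58*, *Trim25*, *Usp18*, *Mx2*, *Xaf1* and *Ifit2*. At an unadjusted p under 0.05 there were 10 higher and 2 lower, a cut at which all genes were not counted. DESeq2 called 8 higher, with *Oasl1* in place of *Trim25*, and 2 lower (*Ifit3* and *Gbp2*). Over all 14079 genes tested by DESeq2, 2265 were higher and 1416 lower. The median log2 fold change of the 38 genes was 0.00, from -0.36 for *Ifit3* to 1.29 for *Oas1a*, beside -0.02 over all genes tested. There were 19 genes with a fitted change above 0 and 19 below, 24 within 1.2-fold, and 2 (*Oas1a* and *Oas2*) above 2-fold. Both were also called, which 5.99% of all genes tested were with a rise above 2-fold. In 8 genes all 3 KO libraries lay above all 3 WT libraries (background 24.7% of all genes) and in 0 below (background 22.4%). These 8 were the called genes without *Mx2* and with *Psmb9* (adjusted p = 0.0565 from edgeR). The share of higher genes was near the background, and it is no result about the list. The count of 8 varied with the libraries in the fit, and it was 5 without KO-1, 4 without KO-3 and 4 without WT-2, and without WT-2 there were 3 lower. Over all genes the count higher was 2092 without KO-1, 2021 without KO-3 and 2013 without WT-2, against 2488 with all libraries. The count lower fell from 1760 to 1131 without KO-3 and to 1182 without WT-2. Fits with a library left out also hold fewer samples, and the part of the smaller design was not separated from that of the library. *Oas1a*, *Oas2* and *Usp18* passed in all 16 alternative fits.

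**Figure D1:**
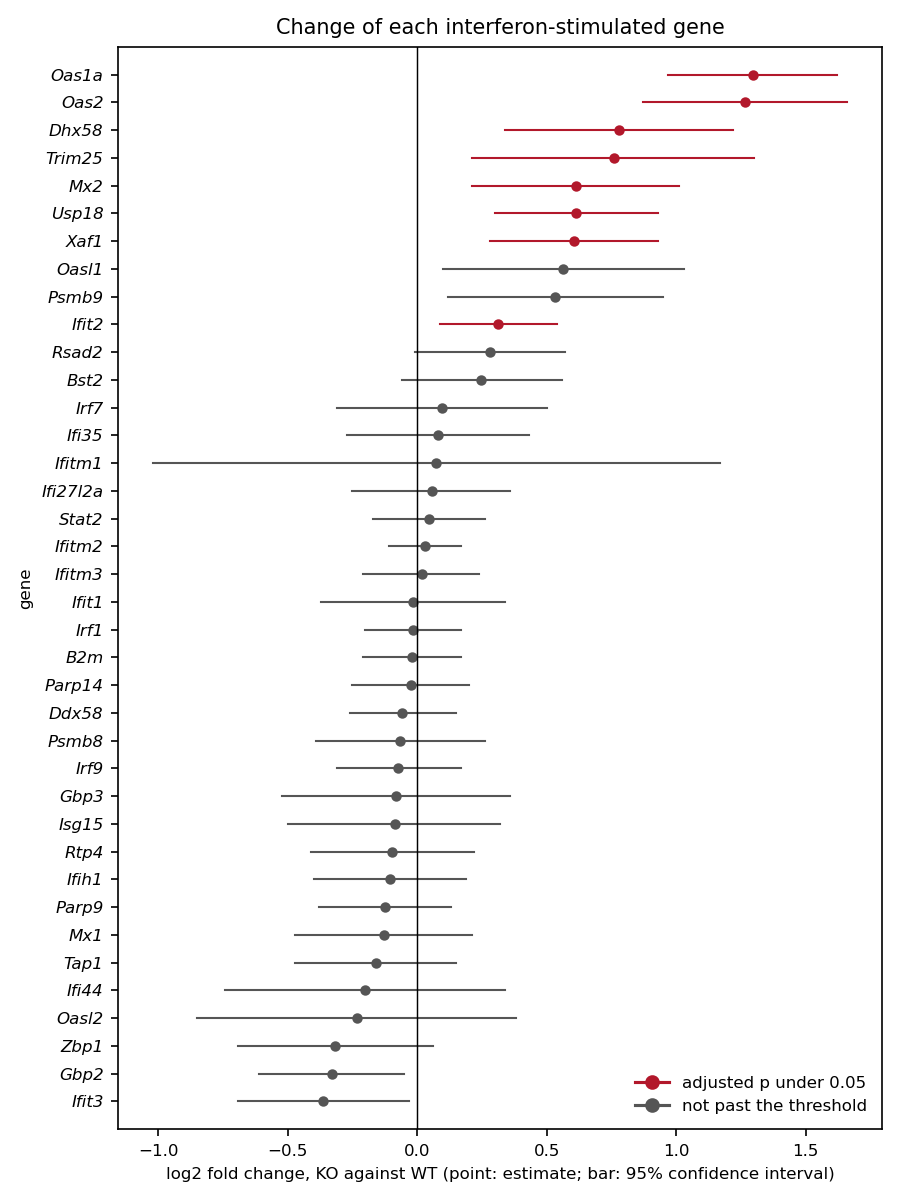
Each of the 38 interferon-stimulated genes on the vertical axis with its fitted log2 fold change (KO against WT) on the horizontal axis. Points are estimates and bars 95% confidence intervals from edgeR with 3 libraries per label, in red at an adjusted p under 0.05. The 8 red genes all lie to the right of 0, and the other 30 run from -0.36 to 0.56.

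The oligoadenylate synthetases (OAS) make a second messenger that activates RNase L, which cuts RNA in infected cells, and this family held the largest changes, with 2 of 4 members higher. *Oas1a* (ENSMUSG00000052776, chromosome 5 from 120896256 to 120907521, minus strand) had 58.5, 45.2 and 50.6 CPM in KO-1 to KO-3 and 23.8, 17.0 and 22.1 CPM in WT-1 to WT-3. Its lowest KO library was above its highest WT library, and the means were 51.5 ± 6.70 and 21.0 ± 3.54 CPM (SD, n = 3). The log2 fold change of *Oas1a* was 1.29 (SE 0.14, adjusted p = 3.62e-04 from edgeR), a 2.45-fold difference, and its adjusted p ran from 1.02e-17 to 0.00239 over the alternatives. *Oas2* (ENSMUSG00000032690, chromosome 5 from 120730333 to 120749853, minus strand) had 41.4, 26.9 and 35.5 CPM in KO and 16.5, 12.2 and 14.5 CPM in WT. The labels again did not overlap, and the log2 fold change of *Oas2* was 1.26 (SE 0.17, adjusted p = 0.00109 from edgeR). An exact two-sided permutation test over the libraries gave p = 0.1 for each of these genes, the lowest value possible with 3 libraries per label.

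The OAS-like genes encode relatives with a ubiquitin-like tail, and neither passed edgeR's test. *Oasl2* had 203, 90.1 and 187 CPM in KO and 217, 154 and 193 CPM in WT, so the labels overlapped and KO-2 lay far below the other libraries. The log2 fold change of *Oasl2* was -0.23 (SE 0.27, 95% interval -0.85 to 0.38, adjusted p = 0.549 from edgeR). *Oasl1*, a repressor of *Irf7* translation, had 26.9, 17.3 and 30.4 CPM in KO and 15.1, 19.5 and 15.9 CPM in WT. Its log2 fold change was 0.56 (SE 0.20, adjusted p = 0.0685 from edgeR), and without KO-2 it was 0.78 with an adjusted p of 0.00492. *Oasl1* also passed with DESeq2 (adjusted p = 0.0156) and without the filter on low counts (adjusted p = 0.0403).

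RNA sensors of the RIG-I-like family start interferon production in infected cells, and *Zbp1* senses nucleic acids in the Z form. Of these 4 genes 1 was higher in KO. *Dhx58* (LGP2, which modulates the other family members; ENSMUSG00000017830, chromosome 11 from 100694884 to 100704271, minus strand) had 59.4, 41.0 and 57.4 CPM in KO and 34.3, 22.6 and 35.2 CPM in WT. All KO values lay above all WT values, and replicate 2 was the lowest of each label. The log2 fold change of *Dhx58* was 0.78 (SE 0.19, adjusted p = 0.0166 from edgeR), a 1.72-fold difference. Its call was lost without KO-1 (adjusted p = 0.0511) and without KO-3 (adjusted p = 0.0578), with log2 fold changes of 0.69 and 0.72. *Ddx58*, which encodes RIG-I itself, had 183, 157 and 175 CPM in KO and 192, 157 and 188 CPM in WT, a log2 fold change of -0.06 (SE 0.09, 95% interval -0.26 to 0.15). The interval of *Ddx58* leaves room for a small change only, and the labels overlapped almost completely. *Ifih1*, which encodes MDA5, had a log2 fold change of -0.11 (adjusted p = 0.572), and *Zbp1* one of -0.32 (adjusted p = 0.184, both from edgeR).

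The transcription factors of the response showed no call among 4 genes. *Stat2*, the ISGF3 subunit that recruits coactivators, had 190, 148 and 183 CPM in KO and 174, 158 and 174 CPM in WT. The KO libraries spanned the whole WT range, and the log2 fold change of *Stat2* was 0.04 (SE 0.09, 95% interval -0.17 to 0.26, adjusted p = 0.752 from edgeR). *Irf9*, the DNA-binding subunit, and *Irf7*, which amplifies type I interferon production, had log2 fold changes of -0.07 and 0.09. *Irf1*, a target of interferon gamma, was at 31.1, 32.3 and 31.5 CPM in KO and 34.9, 29.2 and 31.9 CPM in WT, a log2 fold change of -0.02. Scaling by library size in place of TMM turned the fitted change of *Irf1* to 0.02. Part of the counts of 2 of these genes is uncertain, because *Irf7* overlaps *Phrf1* on the other strand (4826 counts over all libraries against 4717 of *Irf7*) and *Irf9* overlaps *Rnf31* on the same strand (3074 counts). Whether counting used the strand, which bears on *Irf7*, is not given in the sources used here.

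In the ISG15 and ubiquitin system, 2 of 3 genes were higher. *Isg15*, the ubiquitin-like modifier that gives the system its name (ENSMUSG00000035692, chromosome 4 from 156199424 to 156200818, minus strand), had 148, 94.0 and 120 CPM in KO and 152, 103 and 129 CPM in WT. Its labels overlapped, and the order of the 3 replicates was the same in both. The log2 fold change of *Isg15* was -0.09 (SE 0.18, 95% interval -0.50 to 0.32, adjusted p = 0.748 from edgeR). *Usp18*, the protease that removes ISG15 and dampens signaling at the receptor (ENSMUSG00000030107, chromosome 6 from 121245906 to 121270917, plus strand), had 136, 95.0 and 118 CPM in KO and 85.8, 65.7 and 76.5 CPM in WT. All KO libraries were above all WT libraries, with a log2 fold change of 0.61 (SE 0.14, adjusted p = 0.0116 from edgeR). Thus the mRNA of the protease was 1.53-fold higher while the mRNA of *Isg15* was at nearly equal means, 121 ± 27.1 and 128 ± 24.5 CPM (SD, n = 3). Protein levels were not measured here.

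*Trim25*, the ubiquitin ligase that activates RIG-I (ENSMUSG00000000275, chromosome 11 from 88999376 to 89020293, plus strand), had 132, 190 and 207 CPM in KO and 68.4, 115 and 130 CPM in WT. The labels were just apart, 132 against 130 CPM, and replicate 1 was the lowest of each label, unlike most of the 38 genes. The log2 fold change of *Trim25* was 0.76 (SE 0.24, adjusted p = 0.0428 from edgeR). This call was among the least stable, with adjusted p from 0.00110 to 0.134 over the alternatives. It was lost without KO-2 (adjusted p = 0.0928), KO-3 (0.128), WT-1 (0.0717) or WT-2 (0.0731), with log2 fold changes of 0.71, 0.63, 0.53 and 0.83. It was also lost with DESeq2 (adjusted p = 0.0751).

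The IFIT proteins bind viral RNA that lacks the methyl marks of host mRNA, and their genes lie side by side on chromosome 19. *Ifit2* (ENSMUSG00000045932, from 34550694 to 34576419, plus strand) had 56.3, 43.7 and 45.6 CPM in KO and 39.3, 37.8 and 40.0 CPM in WT. Its labels did not overlap, and the log2 fold change of 0.31 (SE 0.10, adjusted p = 0.0448 from edgeR) was the smallest among the called genes. The call of *Ifit2* was lost when any library but KO-2 was left out, with adjusted p of 0.0770 without KO-1, 0.0613 without KO-3, 0.102 without WT-1, 0.128 without WT-2 and 0.0931 without WT-3. The log2 fold changes in these fits were 0.20, 0.36, 0.32, 0.29 and 0.33, and with upper-quartile scaling the adjusted p was 0.0640. *Ifit3* had 166, 126 and 147 CPM in KO and 224, 153 and 187 CPM in WT, a log2 fold change of -0.36 (SE 0.14, adjusted p = 0.0923 from edgeR). That was the lowest fitted value of the 38 genes, and it passed the threshold without WT-2 (log2 fold change -0.49, adjusted p = 0.0283) and with DESeq2 (adjusted p = 0.0238). *Ifit1* had 161, 116 and 146 CPM in KO and 166, 114 and 147 CPM in WT, a log2 fold change of -0.01 (SE 0.15, 95% interval -0.37 to 0.34). The labels of *Ifit1* overlapped over nearly their whole range. The 3 neighbours thus had fitted changes above, below and near 0, and the close copies *Ifit3b* and *Ifit1bl2* could share reads with them.

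**Figure D2:**
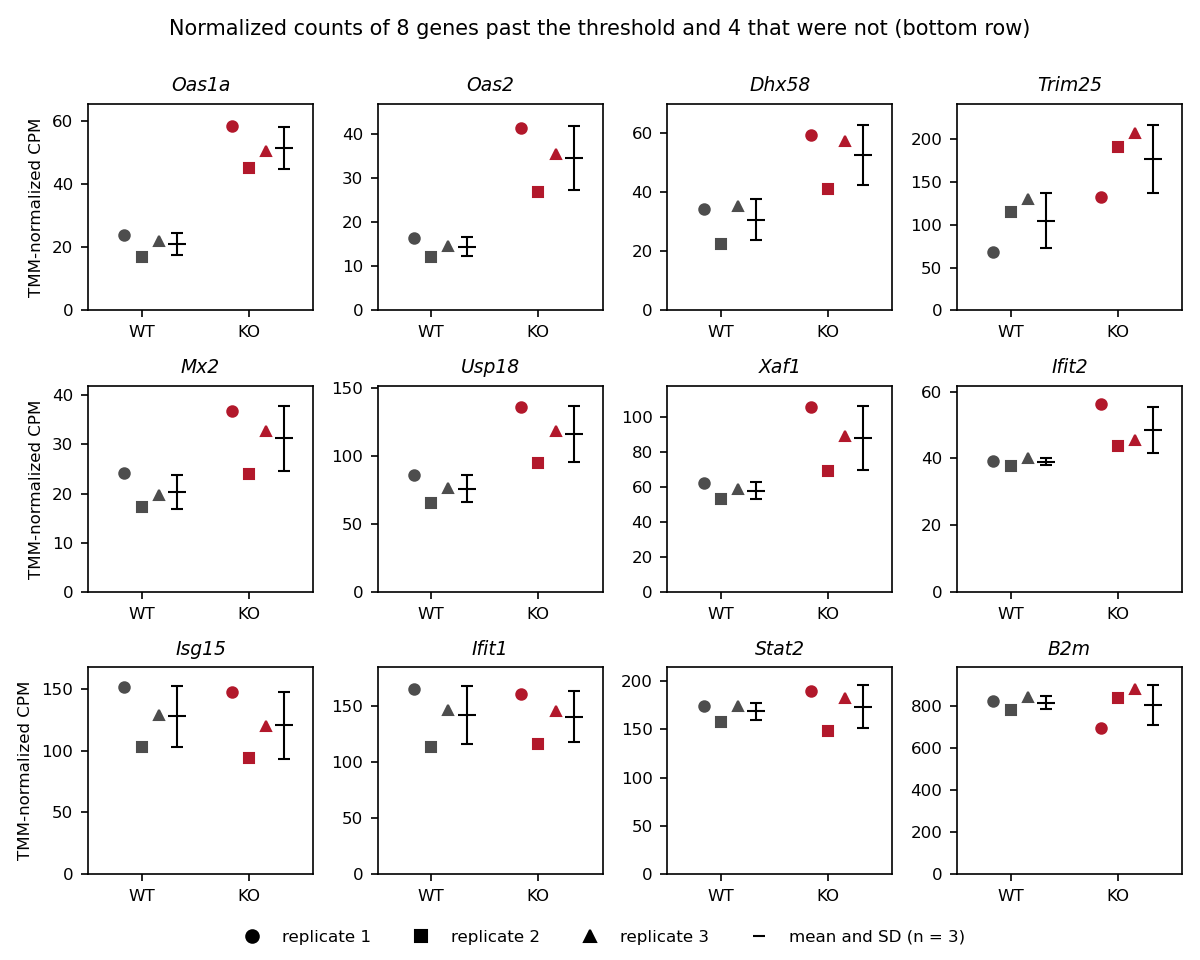
TMM-normalized CPM (vertical axis, from 0) of the 8 genes past the threshold and, in the bottom row, of *Isg15*, *Ifit1*, *Stat2* and *B2m*, for libraries labelled WT (gray) and KO (red). Symbols mark the replicate number, and the bar gives the mean and SD of 3 libraries. In *Oas1a* the KO libraries run from 45.2 to 58.5 CPM and the WT libraries from 17.0 to 23.8 CPM, whereas the labels overlap in the 4 genes of the bottom row and in *Mx2*.

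The Mx GTPases block viral ribonucleoproteins, and 1 of the 2 was higher. *Mx2* (ENSMUSG00000023341, chromosome 16 from 97535308 to 97560900, plus strand) had 36.9, 24.0 and 32.8 CPM in KO and 24.2, 17.3 and 19.7 CPM in WT. KO-2 lay just under WT-1, so the labels overlapped, and the exact two-sided permutation test gave p = 0.2 while edgeR gave an adjusted p of 0.0301 (log2 fold change 0.61, SE 0.17). The call of *Mx2* was lost without KO-1 (adjusted p = 0.0891), KO-3 (0.0874), WT-2 (0.0937) or WT-3 (0.0864), with log2 fold changes of 0.49, 0.58, 0.51 and 0.59. *Mx1*, whose product is truncated in C57BL/6 and most other laboratory strains, stood lower, at 5.10 to 5.80 CPM in KO and 5.53 to 6.82 CPM in WT (log2 fold change -0.13, adjusted p = 0.544 from edgeR).

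Membrane restriction factors other than *Ifitm1* were among the most abundant of the 38 genes, and 0 of 4 passed the test (edgeR; DESeq2 called 0 as well). *Ifitm3*, which blocks entry of viruses at endosomes, had 504, 413 and 447 CPM in KO and 503, 394 and 452 CPM in WT. Its means of 455 ± 46.1 and 449 ± 54.5 CPM (SD, n = 3) were close, and the log2 fold change of *Ifitm3* was 0.02 (95% interval -0.21 to 0.24, adjusted p = 0.910 from edgeR). *Ifitm2* had 231, 226 and 206 CPM in KO and 224, 204 and 221 CPM in WT, a log2 fold change of 0.03 with a narrow interval of -0.11 to 0.17. With upper-quartile scaling the fitted changes of *Ifitm2* and *Ifitm3* were -0.01 and -0.02. *Bst2* (tetherin, which holds virions at the cell surface) had 276, 206 and 248 CPM in KO and 239, 171 and 204 CPM in WT. The labels overlapped in *Bst2* (log2 fold change 0.25, SE 0.13, adjusted p = 0.203 from edgeR). *Ifitm1* stood at 0.709 to 2.70 CPM in KO and 0.955 to 1.75 CPM in WT, where the SE of 0.48 leaves its direction undetermined.

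Among 6 other effectors, 1 was higher. *Xaf1*, which antagonizes the apoptosis inhibitor XIAP (ENSMUSG00000040483, chromosome 11 from 72301629 to 72313733, plus strand), had 106, 69.3 and 89.3 CPM in KO and 62.2, 53.0 and 58.9 CPM in WT. The labels did not overlap, and the log2 fold change of *Xaf1* was 0.60 (SE 0.14, adjusted p = 0.0136 from edgeR). Its call was lost without WT-2, where the log2 fold change was 0.54 and the adjusted p 0.0508. *Ifi44* had 110, 64.7 and 103 CPM in KO and 134, 75.9 and 109 CPM in WT (log2 fold change -0.20, SE 0.24). *Rtp4*, a chaperone of receptor transport, had 64.0, 47.0 and 56.9 CPM in KO and 69.8, 50.7 and 58.8 CPM in WT (log2 fold change -0.10, SE 0.14). *Ifi35* had 61.9, 45.1 and 48.9 CPM in KO and 59.4, 41.4 and 46.8 CPM in WT (log2 fold change 0.08, SE 0.15). In these 3 genes the spread within a label was wider than the difference between labels. *Ifi27l2a* had 10.8, 11.0 and 11.5 CPM in KO and 11.6, 8.87 and 11.7 CPM in WT (log2 fold change 0.06, SE 0.13). *Rsad2* (viperin, which makes a chain-terminating nucleotide) had 57.5, 41.5 and 48.5 CPM in KO and 43.8, 35.6 and 42.0 CPM in WT, a log2 fold change of 0.28 with an adjusted p of 0.134 from edgeR. Without KO-2 the value of *Rsad2* was 0.40 with an adjusted p of 0.0374.

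The ADP-ribosylation genes *Parp9* and *Parp14*, which encode partners in interferon signaling, had log2 fold changes of -0.12 and -0.03 (adjusted p = 0.434 and 0.870 from edgeR). *Parp9* overlaps *Dtx3l*, which had 5187 counts against 6489 of *Parp9*. Guanylate-binding proteins coat and break the vacuoles of intracellular pathogens. *Gbp2* had 78.5, 64.7 and 84.0 CPM in KO and 108, 81.6 and 96.3 CPM in WT, a log2 fold change of -0.33 (SE 0.12, adjusted p = 0.0760 from edgeR). KO-3 lay above WT-2 alone, and without WT-2 the value of *Gbp2* was -0.43 with an adjusted p of 0.0338. *Gbp2* also passed with DESeq2 (adjusted p = 0.0308) and with upper-quartile scaling (adjusted p = 0.0439). *Gbp3* had 108, 72.4 and 89.4 CPM in KO and 115, 70.6 and 100 CPM in WT, a log2 fold change of -0.08 (SE 0.19, adjusted p = 0.780 from edgeR).

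Antigen processing supplies peptides to MHC class I, and 0 of its 4 genes passed the test (edgeR; DESeq2 called 0 as well). *B2m*, the invariant light chain of MHC class I, had the highest level per length of the 38 genes, a mean FPKM of 939 over all libraries. It had 694, 836 and 879 CPM in KO and 823, 779 and 842 CPM in WT, a log2 fold change of -0.02 (SE 0.08, 95% interval -0.21 to 0.17, adjusted p = 0.879 from edgeR). Here KO-1 was the lowest library. *Psmb8* and *Psmb9* encode immunoproteasome subunits, with log2 fold changes of -0.06 and 0.53. *Psmb9* had 5.24, 5.93 and 6.38 CPM in KO and 4.76, 3.28 and 4.12 CPM in WT. The labels of *Psmb9* were apart but its adjusted p was 0.0565 from edgeR, 0.0495 without WT-1, 0.0466 with scaling by library size and 0.0420 with limma on log2(FPKM + 1). Its 416 counts lie beside the 4168 of *Tap1*, which overlaps it on the other strand, so the value of *Psmb9* is uncertain. *Tap1*, the peptide transporter, had a log2 fold change of -0.16 (adjusted p = 0.416 from edgeR), and without WT-2 of -0.32 with an adjusted p of 0.0244.

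Per length, the genes spanned a wide range of levels. After *B2m*, mean FPKM over all libraries was 667 for *Ifitm3*, 348 for *Ifitm2*, 293 for *Bst2*, 164 for *Isg15* and 95.7 for *Ifit3*. The called genes stood lower in this order, from 27.9 for *Usp18* and 24.2 for *Trim25* to 19.3 for *Oas1a*, 12.7 for *Xaf1*, 10.0 for *Ifit2*, 9.55 for *Dhx58*, 5.10 for *Mx2* and 3.00 for *Oas2*. None of the 10 genes with the highest FPKM was called by edgeR, where 30.2% of all genes tested were, and DESeq2 called 2 of them, *Ifit3* and *Gbp2*, lower. This cut was not planned, and the called *Usp18* and *Trim25* come directly after it, so no link between level and call is drawn. The lowest mean FPKM were 1.17 for *Ifitm1*, 1.10 for *Mx1* and 0.787 for *Psmb9*.

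**Figure D3:**
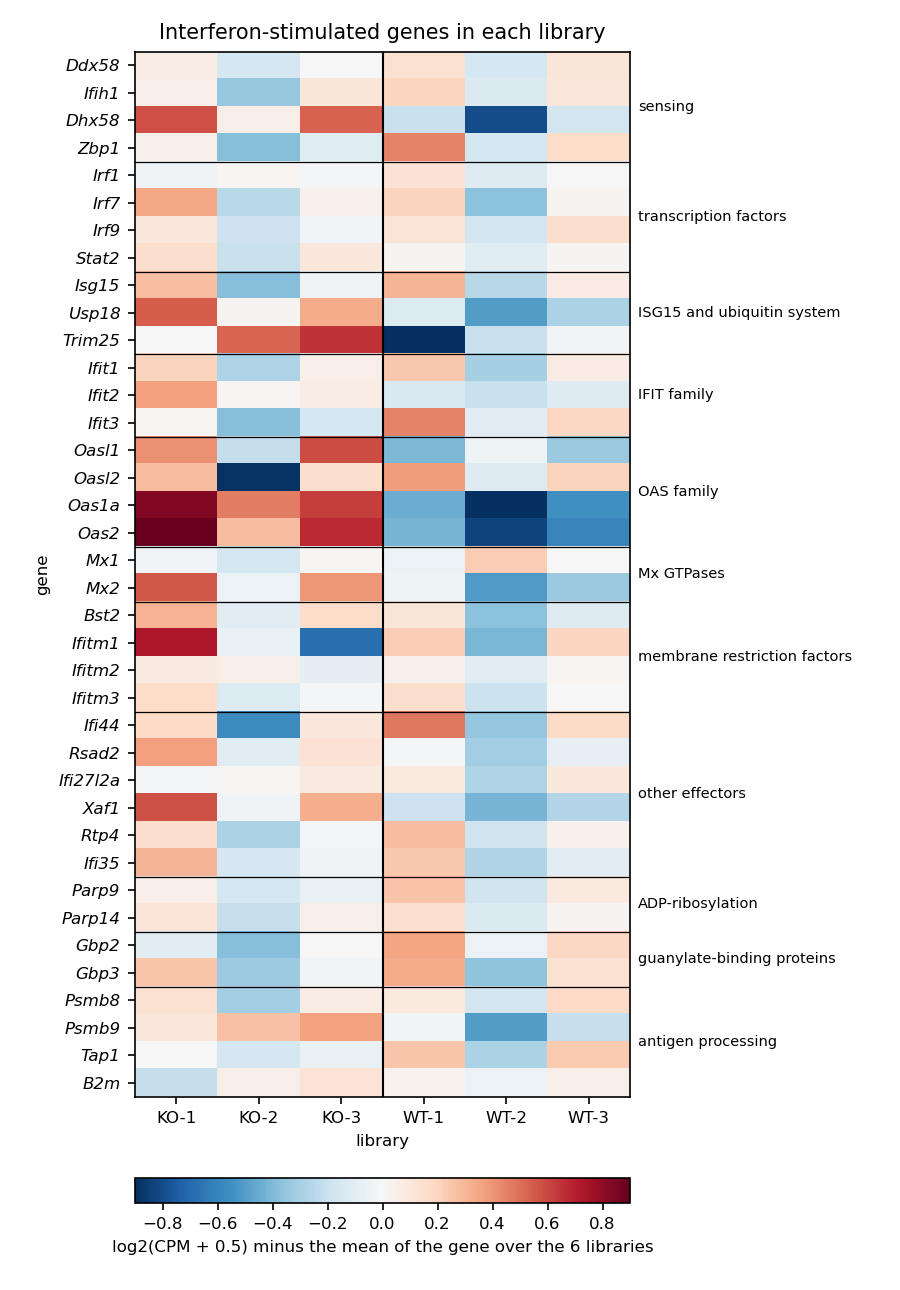
Level of each of the 38 genes (rows, grouped by role) in each library (columns), as log2(CPM + 0.5) minus the mean of that gene over the 6 libraries (color scale, from -0.9 to 0.9, with lower values in the end color). The columns KO-2 and WT-2 are mostly blue and KO-1 and WT-1 mostly red, while *Oas1a* and *Oas2* are red in all KO columns and blue in all WT columns.

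Within each label the genes varied together between libraries. The lowest KO library was KO-2 in 31 of the 38 genes and the lowest WT library was WT-2 in 35, and both held in 29. Over all genes tested these shares were 33.5%, 32.4% and 11.6%. The highest library was KO-1 in 29 genes and WT-1 in 28, and both in 24, where 13.3% of all genes had both. The median deviation from the mean of the label, as log2(CPM + 0.5), was 0.19 in KO-1, -0.22 in KO-2 and 0.04 in KO-3, and 0.18 in WT-1, -0.22 in WT-2 and 0.04 in WT-3. Over all genes tested these medians were 0.00 in each library after rounding. The numbers come from the sample titles, which do not say that libraries of the same number share an animal, a day or a batch. The 9 exceptions to the lowest pair were *Trim25*, *B2m*, *Irf1*, *Ifi27l2a* and *Psmb9*, where KO-1 was the lowest KO library, *Ifitm1* and *Ifitm2*, where KO-3 was, and *Mx1* and *Oasl1*, where WT-2 was the highest WT library.

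Of the 68 tested genes of a wider list of interferon-stimulated genes, 46 were lowest in both KO-2 and WT-2. The same held for 11 of 18 genes of MHC class I and peptide loading, 4 of 16 sensor adaptors and kinases, 4 of 14 negative regulators, 2 of 11 genes of receptors and JAK-STAT signaling, and 0 of 14 constitutive proteasome genes. It held for 1 of 10 fibroblast, 2 of 12 macrophage and 2 of 12 endothelial markers. Summed fibroblast markers were 25060, 29332 and 27931 CPM in KO-1 to KO-3 and 34958, 37562 and 37379 CPM in WT-1 to WT-3, lowest in replicate 1 and highest in replicate 2 of each label, the reverse of most of the 38 genes. Summed macrophage markers were 1328, 1324 and 1287 CPM in KO-1 to KO-3 and 1678, 1603 and 1664 CPM in WT-1 to WT-3. Summed endothelial markers were 2237, 1562 and 1836 CPM in KO and 295, 299 and 288 CPM in WT. The endothelial sum thus followed the order of the interferon-stimulated genes in the KO libraries but not in the WT libraries. The part of the fibroblast and endothelial sums in the result was not tested. With KO-2 and WT-2 both left out, an alternative chosen after seeing the data, 7 of the 38 genes were higher and 3 lower. As background, the same fit called 2039 of its 14223 genes higher and 1179 lower.

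**Figure D4:**
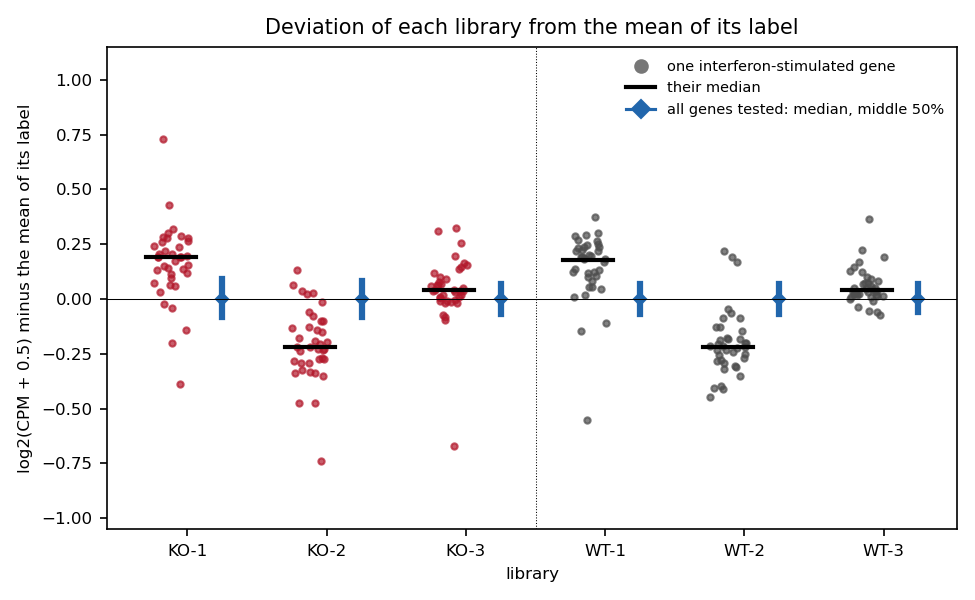
Deviation of each library from the mean of its label (vertical axis, log2(CPM + 0.5)), with one point per interferon-stimulated gene, their median as a bar, and the median and middle 50% of all genes tested in blue. The medians are 0.19 and 0.18 in KO-1 and WT-1 and -0.22 in both KO-2 and WT-2, while the blue medians lie at 0.

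The other genes of the pathway were read from 7 lists, beside a background of 17.7% of all genes tested higher and 12.5% lower. Of 20 interferon genes 0 could be tested, because 16 had no count in any library and the highest count of any in a library was 3. *Ifng* was at 0 in every library, and *Ifnb1* had 2 counts in KO-1, 1 in KO-2 and 0 in the others, below the 3 counts that an observed 0 allows. The other interferon genes with a count were *Ifna4* (3 in KO-1), *Ifnab* (2 in KO-2) and *Ifnz* (0 to 3 in KO and 1 to 2 in WT). Among 11 genes of receptors and JAK-STAT signaling, 2 were higher and 5 lower (median log2 fold change -0.20). *Ifnar1* and *Ifnar2*, the receptor for type I interferon, had 90.0, 94.8 and 101 CPM in KO against 122, 108 and 108 CPM in WT, and 97.4, 101 and 98.3 CPM against 124, 126 and 122 CPM. Both were lower without overlap of the labels, with log2 fold changes of -0.25 (adjusted p = 0.0290) and -0.33 (adjusted p = 0.00138, both from edgeR). *Ifngr1* and *Ifngr2*, the receptor for interferon gamma, were lower by the same measure (log2 fold change -0.35 each, adjusted p = 0.00895 and 0.00191), and so was *Il10rb* (-0.20, adjusted p = 0.0380), a chain shared by the receptors for interleukin 10 and interferon lambda. *Ifnlr1*, the specific chain for interferon lambda, stood at 0.450 to 0.983 CPM in KO and 1.09 to 1.64 CPM in WT (log2 fold change -0.89, adjusted p = 0.102). The median log2 fold change was -0.39 over the fibroblast markers, -0.39 over the macrophage markers, -0.42 over the cardiomyocyte markers and 2.64 over the endothelial markers. The part of these cells in the receptor values was not tested.

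The kinases *Jak2* and *Tyk2* were higher, with log2 fold changes of 0.49 (adjusted p = 2.02e-04) and 0.34 (adjusted p = 0.00725), and *Jak1* was at -0.05 (adjusted p = 0.523, all from edgeR). Of 14 negative regulators 1 was higher and 1 lower, *Pias4* (0.36, adjusted p = 0.0145) and *Ptpn6* (-0.46, adjusted p = 0.00574). Among 16 adaptors and kinases behind the sensors, 3 were higher and 2 lower. The largest of these changes were in *Ikbke* (0.86, adjusted p = 4.06e-04) and *Tbk1* (0.50, adjusted p = 0.00279), kinases that phosphorylate IRF3, and in *Irf8* (0.68, adjusted p = 0.0151). *Ikbke* had 134, 106 and 120 CPM in KO and 62.7, 62.6 and 72.7 CPM in WT.

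Of 75 further interferon-stimulated genes 68 could be tested, and 22 were higher and 5 lower (background 17.7% and 12.5%). The median of their log2 fold changes was 0.14, in a range of -0.49 to 4.37. The 3 largest changes were in *Gbp4*, *Oas3* and *Oas1g*. *Gbp4* had 28.9, 27.0 and 30.9 CPM in KO and 1.89, 0.887 and 1.42 CPM in WT, a log2 fold change of 4.37 (SE 0.20, adjusted p = 5.76e-06 from edgeR). *Oas3* had 67.8, 47.1 and 57.5 CPM in KO and 6.16, 4.71 and 3.84 CPM in WT, a log2 fold change of 3.55 (SE 0.19, adjusted p = 1.11e-05 from edgeR). *Oas1g*, a close copy of *Oas1a*, had 35.9, 20.4 and 22.7 CPM in KO and 6.23, 4.78 and 5.33 CPM in WT, a log2 fold change of 2.27 (SE 0.23, adjusted p = 2.63e-04). Each of these 3 changes exceeded that of any of the 38 genes. Whether *Oas1a* and *Oas1g* share reads was not tested.

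The families were then read by position, a grouping chosen after the values were seen. *Oas2*, *Oas3*, *Oas1c*, *Oas1b*, *Oas1g* and *Oas1a* lie on chromosome 5 between 120730333 and 120907521, where further genes were not looked at, and 5 of these 6 were higher (background 17.7% of all genes tested), with *Oas1c* at a log2 fold change of 1.19 (adjusted p = 0.00203) and *Oas1b*, on the other strand, at 0.44 (adjusted p = 0.0773). *Oasl2* and *Oasl1* lie elsewhere on chromosome 5, from 114896936 to 114937915. The guanylate-binding genes form clusters on 2 chromosomes. On chromosome 3, from 142493978 to 142638008, *Gbp5*, *Gbp7*, *Gbp3* and *Gbp2* had log2 fold changes of -0.33, 0.11, -0.08 and -0.33, and 0 of the 4 were called by edgeR, whereas DESeq2 called *Gbp2* lower. On chromosome 5, *Gbp4*, *Gbp8*, *Gbp9* and *Gbp10* were higher (4.37, 2.03, 1.99 and 2.15), and *Gbp6* and *Gbp11* were not called (-0.16 and 0.28). The gene models of *Gbp4*, *Gbp8* and *Gbp9* overlap on the same strand, so their counts are uncertain. In the IFIT cluster on chromosome 19, *Ifit1bl2* (1.23, adjusted p = 0.0310 from edgeR) was called besides *Ifit2*, at 3.45 to 5.49 CPM in KO and 0.853 to 2.45 CPM in WT.

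Of 18 further genes of MHC class I and peptide loading, 2 were higher and 1 lower, with a median of -0.01. *H2-M3*, which presents formylated peptides, was at 20.0, 12.8 and 17.4 CPM in KO and 3.99, 4.91 and 5.76 CPM in WT (log2 fold change 1.77, adjusted p = 4.61e-04). *H2-D1*, a classical heavy chain, was at 622, 492 and 555 CPM in KO and 279, 250 and 287 CPM in WT (log2 fold change 1.03, adjusted p = 1.09e-04, both from edgeR), while its light chain *B2m* was at -0.02. *Psmb10*, the immunoproteasome subunit besides *Psmb8* and *Psmb9*, was lower (-0.34, adjusted p = 0.0364). Of 14 constitutive proteasome genes 1 was higher and 2 lower, with a median of -0.09. *Psmb5*, whose place *Psmb8* takes in the immunoproteasome, was at -0.32 (adjusted p = 0.00410 from edgeR), beside *Psmb4* at -0.27 (adjusted p = 0.0104) and *Psmb3* at 0.18 (adjusted p = 0.0249). Heavy chains of MHC class I are close copies of each other and could share reads.

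**Figure D5:**
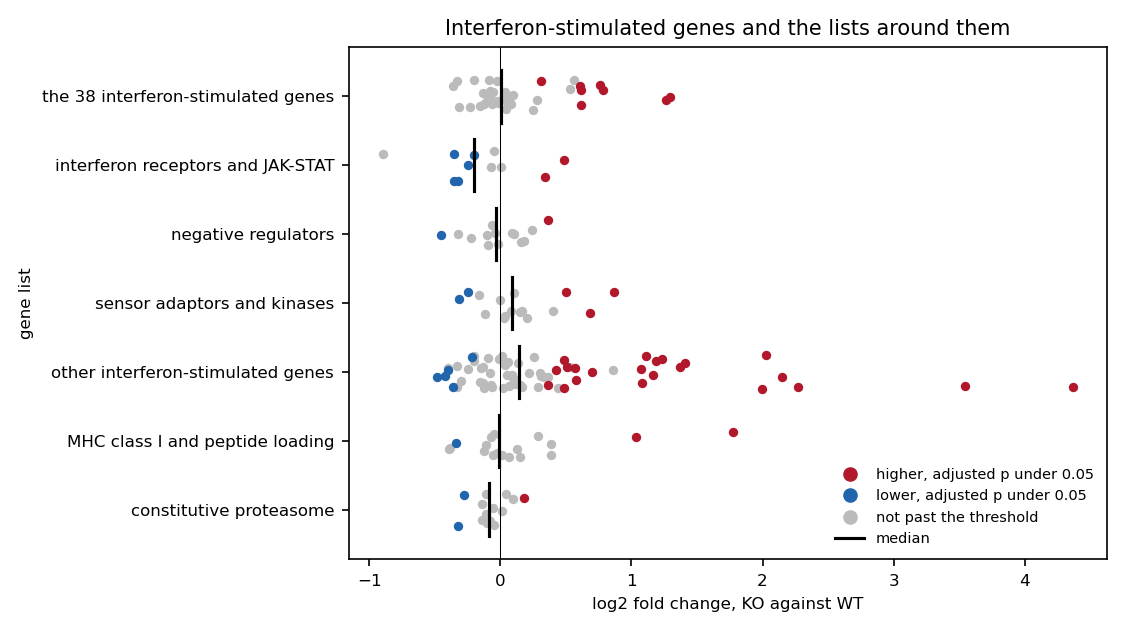
Log2 fold change (horizontal axis, KO against WT) of every tested gene in the 38 interferon-stimulated genes and in 6 lists around them (vertical axis). Points are red where higher and blue where lower at an adjusted p under 0.05, gray otherwise, and bars mark medians. The median is 0.00 for the 38 genes, -0.20 for receptors and JAK-STAT, and 0.14 for the further interferon-stimulated genes, where 22 points are red.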

How the data were processed

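RNA was sequenced by the authors as 150-base paired-end reads from strand-specific libraries, and mapped to mm10 (GRCm38.p4) with HISAT2 at default settings, and the submitters' processing notes also name edgeR without its role. The counting tool, annotation release and strand setting are not given in the sources used here. The authors deposited whole-number counts per gene without normalization. They also deposited FPKM values, which equal those counts per gene length and library total (the implied length varied between libraries by a share of at most 7.80e-04). FPKM served for levels between genes and in an alternative test.

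The main test was the quasi-likelihood test of edgeR 4.0.16 under R 4.3.3, after filterByExpr and TMM scaling, on all 6 libraries without covariates, with Benjamini-Hochberg adjustment over 14084 genes and a threshold of 0.05. FPKM with limma was not the main test because counts were at hand. Libraries held 12025403 to 15329427 counts, and replicate pairs of a label differed beyond sampling noise in 22.4% to 31.7% of genes (unadjusted p under 0.05), so none was counted as a duplicate. The edgeR, DESeq2, limma and replicate-block fits were run on simulated data first. Single genes were also compared by exact two-sided permutation tests, which were not run on simulated data.

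The members and all lists were chosen with earlier results of these data known. Full values are given for members past the threshold or among the 19 with the highest mean FPKM, and ranges or shorter values for the rest, except *Irf1*, *Oasl1*, *Rsad2* and *Psmb9*, whose values are given in every library and which were chosen after their values were seen. From the pathway lists the receptors, ligands and the 3 largest called changes were named, 1 gene that the rule also names is not reported here, and further genes were named after their values were seen. Genes *Ifi207*, *Ifi209*, *Gbp6* and *Itgam* were matched by gene ID. Promoter sequences came from RefSeq (GRCm38.p6) and were searched with Python 3.11.15.

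The alternatives changed the filter (none, or a mean of 1 CPM or more), the scaling (RLE, upper quartile, library size), the tool (DESeq2 1.42.0, or limma 3.58.1 on log2(FPKM + 1) and log2(FPKM + 0.1)), the design (a block for the replicate number) or the libraries (each left out in turn, and both numbered 2, which was chosen after seeing the data), or required more than a 2-fold change besides.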

Additional observations from a re-analysis of the deposited data

How the results depend on the processing

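The median log2 fold change of the 38 genes stayed between -0.07 and 0.07 under every alternative run, and scaling moved the median of all genes by no more than 0.04 from -0.02. The count of 8 genes higher among the 38 became 2 with a fold change above 2 in addition (all genes: 844 higher, 38 lower). It was 4 to 9 with a library left out, where the 9 without KO-2 included *Oasl1* and *Rsad2* and lacked *Trim25*. The count of 0 lower became 1 with upper-quartile scaling, 2 with DESeq2, 3 without both libraries numbered 2, and from 0 to 3 with a library left out. Over all genes, leaving out a library gave 1131 to 1614 lower and 2013 to 2508 higher. Upper-quartile scaling gave 2210 higher and 2263 lower, library size 2739 and 1424, DESeq2 2265 and 1416, and leaving out both libraries numbered 2 gave 2039 and 1179. The cause of these differences was not tested.

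With the replicate number as a block, 10 of the 38 genes were higher and 3 lower (all genes: 16.4% and 11.3%). The block added *Bst2* (0.25, adjusted p = 0.00930 from edgeR), *Rsad2* (0.27, 0.0334), and as lower *Ifit3* (-0.35, 0.00493), *Gbp2* (-0.33, 0.0162) and *Zbp1* (-0.31, 0.0275). Nothing in the labels says that numbers pair the libraries, and over all genes the deviations of same-numbered libraries correlated at 0.01, 0.01 and 0.03, so the numbers were not taken as pairs. Over the 38 genes these values were 0.60, 0.27 and -0.09, and KO-1 correlated best with its own number while KO-2 and KO-3 did not. A correlation across genes leaves out any shift that the 38 genes share. It therefore cannot show the low medians of KO-2 and WT-2 (-0.22 in each), and over all genes it says little about a shift in few genes. Whether the numbers mark shared libraries was not settled.

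Some uncalled changes near 0 turned sign. With library size only, or with limma on log2(FPKM + 1) or log2(FPKM + 0.1), *Irf1* and *Ifit1* were at 0.02 and *Parp14* and *B2m* at 0.01. With the upper quartile *Ifitm2* was at -0.01 and *Ifitm3* at -0.02. Without both libraries numbered 2, *Mx1* was at 0.03, *Ifitm1* -0.07, *Ifitm2* -0.02, *Ifitm3* -0.00, *Ifi27l2a* -0.05 and *Parp14* 0.00. With a library left out the values ran from -0.15 to 0.01 for *Ddx58*, -0.19 to 0.03 for *Ifih1*, -0.08 to 0.05 for *Irf1*, -0.06 to 0.24 for *Irf7*, -0.17 to 0.01 for *Irf9*, -0.02 to 0.15 for *Stat2*, -0.25 to 0.07 for *Isg15*, -0.16 to 0.12 for *Ifit1*, -0.43 to 0.06 for *Oasl2*, -0.52 to 0.46 for *Ifitm1*, -0.01 to 0.08 for *Ifitm2*, -0.07 to 0.10 for *Ifitm3*, -0.40 to 0.01 for *Ifi44*, -0.07 to 0.12 for *Ifi27l2a*, -0.20 to 0.03 for *Rtp4*, -0.06 to 0.24 for *Ifi35*, -0.10 to 0.08 for *Parp14*, -0.26 to 0.08 for *Gbp3*, -0.16 to 0.07 for *Psmb8* and -0.08 to 0.08 for *B2m*. The longer ISRE core gave 39.3% in place of 50%. At 3 libraries per label and 12025403 to 15329427 counts, *Ifitm1* had the largest SE of the 38 (0.48).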
